A study of Drosophila melanogaster with 3 samples.

Results

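The regions described here are 482 binding peaks of the Drosophila protein CG2120 whose summit, the base of strongest enrichment, lay 1 to 500 bp downstream of the nearest protein coding transcription start site (TSS). They were chosen by position alone, with the strand of the gene taken into account. Summits within 500 bp of both TSSs of a divergent pair, that is of neighbouring genes transcribed away from each other from TSSs at most 500 bp apart, were left out. The members were 5.78% of the 8340 peaks of the optimal list, the authors' list of reproducible peaks. Of the other peaks, 2336 lay at or up to 500 bp upstream of an unpaired TSS, 1302 lay in divergent pairs and 4220 lay elsewhere.

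The peaks came from chromatin immunoprecipitation with sequencing (ChIP-seq) on whole embryos of Drosophila melanogaster collected at 18 to 24 h of age. All embryos came from a transgenic line that stably carried CG2120 with GFP fused to its C-terminal end, and an anti-GFP antibody was used to pull down the tagged protein. There was 1 group of 3 biological replicates, and no second genotype, stage or treatment was compared. CG2120 is a predicted C2H2 zinc finger protein, and which cells of the embryo held the fusion protein is not stated in the labels.

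A promoter of a protein coding gene is the stretch around the TSS where RNA polymerase II and the general transcription factors assemble. Downstream of the TSS lie the 5′ untranslated region (5′ UTR), which is transcribed but not translated, and in many genes an early first intron, which can hold enhancers and further promoters. Short sequence elements mark many fly promoters. They include the initiator at the TSS, the downstream promoter element (DPE), and the DNA replication-related element (DRE), which is bound by DREF and found at many broadly active genes.

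The strongest members show where the protein was mapped downstream of a TSS. The sequences below are 29 bases of the dm6 genome around the summit of 8 of the 12 strongest members that were also among the strongest peaks of every replicate, read 5′ to 3′ on the strand of the gene, with the summit base in capitals. The other 4, GstE13, Ufsp1, CG2811 and Adk3, are described by their values only. At PNPase, GstE13, CG18622, Ufsp1, CG17982, CG2811 and CG4497 a further TSS of the same gene lay ahead of the summit within 500 bp. These summits were thus also upstream of a promoter, as were 23.4% of all members.
PNPase, chr3R:31404645-31404673, minus strand: gaaacgtacagggcTtttattgtaagatt
CG18622, chr3R:16986650-16986678, minus strand: aatggcattggccaAatcaggtttttggc
CG31612, chr2L:21794960-21794988, minus strand: atctattagtggttGatatggtacctatg
CG17982, chrX:8143734-8143762, minus strand: tatcgggtttataaAattcggaaaatttt
Cftr, chr3R:24543218-24543246, minus strand: tcaaagcccttaaaAattcgatacgtttt
ph-p, chrX:2137960-2137988, minus strand: atttgaaacattaaTaaacttaaaactta
Eip63F-1, chr3L:3928670-3928698, minus strand: gcattaaatggagtTgcaaatgttttgca
CG4497, chr2L:7194541-7194569, minus strand: attggcattatactActaaattgtctttg

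A second set shows members with the letters of a known promoter element near the summit. These elements are some of those whose letters differed in share between downstream and upstream summits, and others with such a difference are not printed. The adjusted p of each printed element was 0.556 over 20 motifs (exact sign-flip permutation test). The capitals mark these letters on the strand of the gene, and whether they act as an element was not tested. They spell the DRE (TATCGATA) in the first group of names, the motif 7 core (CAGCNCTG) in the next and the DPE (CGGACG) last. The motif 7 core of Nulp1 and the DPE letters of CG12290 are on the opposite strand and appear as their reverse complements.
RpS29, chr3R:9778047-9778075, plus strand: tcgtggaaaaTATCGATActgccaccccc
CG2200, chrX:13094288-13094316, plus strand: gtgagtttccTATCGATAtcgaagaactc
CG10809, chr3L:9859847-9859875, minus strand: acatatgtatgTATCGATAggccaaaaca
Gmppb, chr3R:4813278-4813306, plus strand: atccggctatCAGCGCTGctgcgagtggg
Nulp1, chr3L:8110335-8110363, plus strand: ctgtctaggcCAGTGCTGtgaagcgcgcg
ND-13B, chr3L:10694106-10694134, minus strand: gtggcatttcaCAGCACTGtgttatagcc
Prx4, chr3L:3042792-3042820, plus strand: actggctgacaCGGACGgaacaaggattt
Wdr62, chr2L:1884700-1884728, plus strand: tttcgcagcgtCGGACGtgtttcgctccc
CG12290, chr3R:26230285-26230313, plus strand: aagatcgtgctCGTCCGatcggtgcgcgt

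The number of downstream summits was similar in the replicates. When the same rule was applied to the 8340 strongest peaks of each replicate, as many as the optimal list holds, it gave 523 summits in replicate 1, 507 in replicate 2 and 448 in replicate 3. The members were 17.1% of the 2818 summits within 500 bp of an unpaired TSS, and the replicates gave 17.5 ± 1.15% (SD, n = 3). Every replicate thus placed far fewer summits downstream of the TSS than upstream of it. Spreads and tests over the replicates cover only these 3 samples of 1 line.

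The members crowded against the TSS. Their median distance was 89.5 bp, with quartiles at 31.3 and 262 bp. In the replicates the median was 86.0 bp, 85.0 bp and 120 bp for replicates 1, 2 and 3. In the optimal list 175 members lay 1 to 50 bp downstream and 84 lay at 51 to 100 bp. Beyond 200 bp each 50 bp held 18 to 30 members, with 30 in the last 50 bp and 38 summits just beyond the limit, at 501 to 550 bp. The members therefore thinned out over the first 200 bp, and the stretch behind that did not end at 500 bp.

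**Figure D1:**
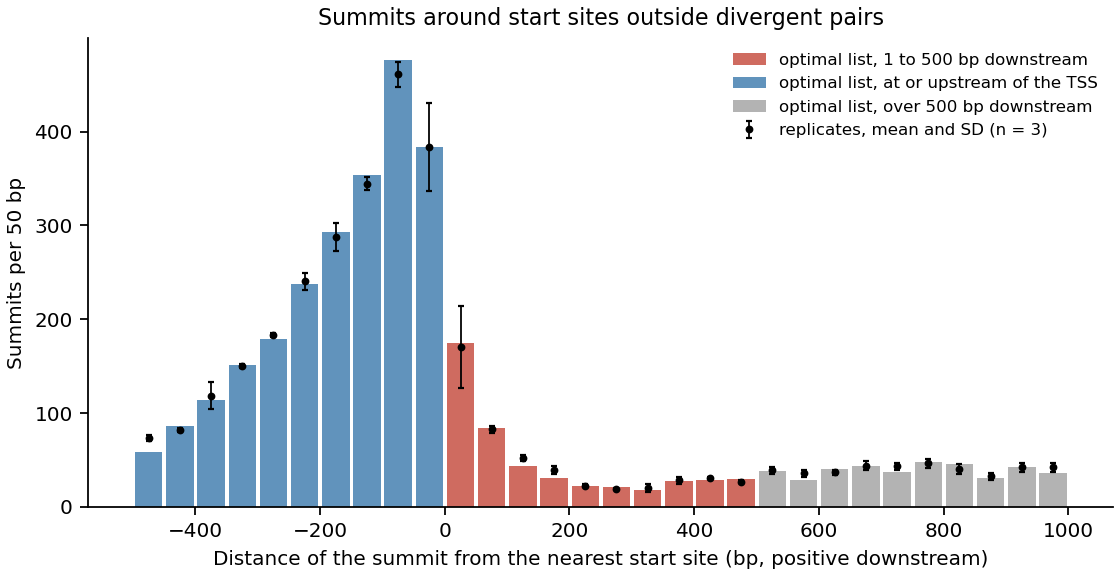
Number of summits per 50 bp against the distance from the nearest TSS outside divergent pairs, positive downstream. Bars are the optimal list, and points with error bars give the mean with its SD over the 8340 strongest peaks of each of the 3 replicates. The first 50 bp downstream hold 175 summits, against 384 in the last 50 bp up to the TSS, and beyond 200 bp each bar holds between 18 and 48.

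The replicates differed close to the TSS, on both sides of it. In the first 50 bp downstream replicates 1 and 2 had 204 and 187 summits, and replicate 3 had 121. In the last 50 bp up to the TSS the counts were 401, 420 and 331, so replicate 3 was low there too. At 51 to 100 bp the counts were 80, 87 and 81, and at 401 to 500 bp they were 55, 57 and 61. Among the downstream stretches given here, replicate 3 was low in the first. Its whole list was shorter, at 27353 peaks against 30000 in each of replicates 1 and 2. The counts in this paragraph, though, use only the 8340 strongest peaks of each replicate, so equally many peaks entered from each. The cause of the difference was not tested. At the edge of the rule 52 optimal summits lay 1 to 10 bp downstream, with a median signal of 188, against 44 at or up to 9 bp upstream of the TSS, with a median signal of 237.

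Most members could be followed from one replicate to the next, and those very near the TSS changed sides. A peak counted as the same when the summits were within 100 bp. Such a summit was present for 466 members in the full list of replicate 1, for 472 in replicate 2 and for 456 in replicate 3. The same share over all optimal peaks is not given here, so these counts do not set the members apart. The median shift of the summit was 13, 8 and 15 bp. It lay on the downstream side of the same TSS, within 500 bp, in all 3 replicates for 342 of the 482 members (71.0%, 95% exact binomial interval 66.7 to 75%, which covers counting error only). For upstream summits, the same share for their own side was 86.4% (2018 of 2336).

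The side was least fixed in the first 50 bp, where 89 of 175 members (50.9%) were placed downstream in every replicate. In that stretch 38 members fell at or upstream of the TSS in replicate 1, 31 in replicate 2 and 40 in replicate 3. Of the 75 members over 100 and up to 200 bp away, 92.0% were placed downstream in every replicate. At 401 to 500 bp the share was 62.7%, and there 6, 4 and 12 members lay beyond 500 bp in replicates 1, 2 and 3. Among the named members, CG4497 lay at +33 bp in the optimal list and at -1, +37 and +34 bp in the replicates, and RpS29, a protein of the small ribosomal subunit, lay at +9 bp and at +9, +9 and -12 bp. Both were thus close enough to the TSS for 1 replicate to put them on its other side.

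**Figure D2:**
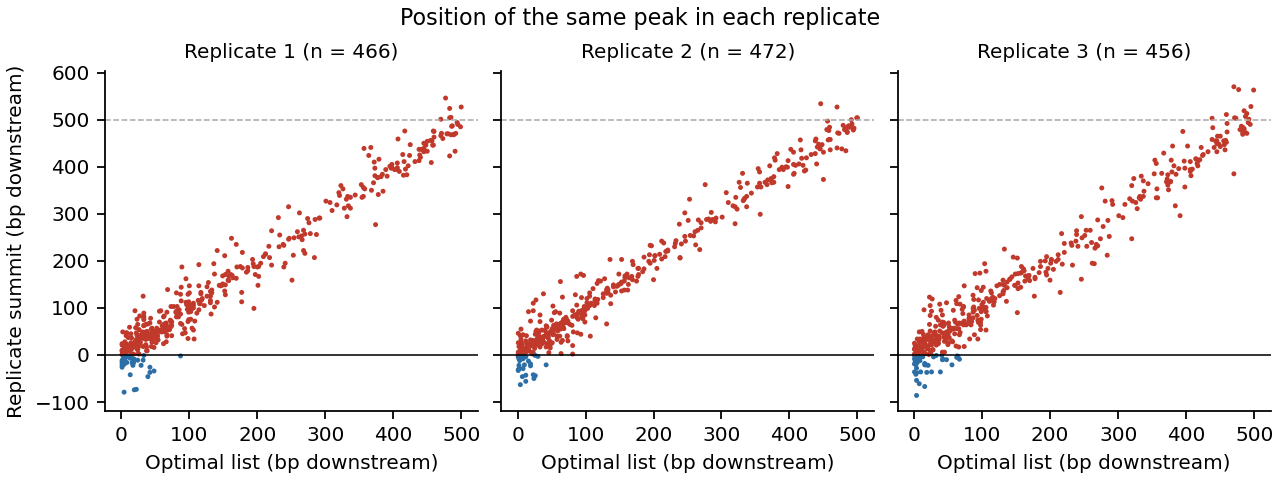
Distance of the summit downstream of the TSS in the optimal list (horizontal axis, bp) and of the same peak in each replicate (vertical axis, bp), 1 point a member. Points in blue at or under 0 lie at or upstream of the TSS in that replicate, and they number 39, 31 and 45 in replicates 1, 2 and 3.

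Downstream summits ranked lower in signal than upstream ones in every replicate. Signal is the enrichment value that the authors' caller gave a peak, and it is compared only as a rank within a list, with percentile 100 the strongest. In the optimal list the members had a median signal of 191, against 270 at upstream summits, 321 in divergent pairs and 213 elsewhere. Their median percentile was 39.6, 35.9 and 38.8 in replicates 1, 2 and 3, against 57.3, 55.4 and 56.6 for upstream summits. These replicate medians did not overlap, but the summits themselves did. In the optimal list signal ran from 123 to 4755 at members and from 123 to 7987 at upstream summits. The difference of the median percentiles was -18.3 ± 1.01 points (SD, n = 3, exact two-sided sign-flip permutation test p = 0.25, adjusted over 4 measures p = 0.333). With 3 replicates this test cannot give a p below 0.25, so no comparison here can pass 0.05. The gap depended on which peaks entered. It was -20.5 points in the whole optimal list. When replicate 1, 2 or 3 was left out and an optimal peak had to recur among the 8340 strongest of both remaining ones, it was -8.10, -8.70 and -13.3 points. In the mean of the replicates it was -2.30 points among the peaks above the median signal of each list. Both of these choices keep peaks by their signal, so a smaller gap is in part built in. Among the 1000 strongest peaks of the optimal list were 38 members (7.88%), against 336 of the upstream summits (14.4%). In whole embryos a weak peak in all cells and a strong peak in few cells cannot be told apart.

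A smaller share of members than of upstream summits was among the strongest peaks of every replicate. This is itself a cutoff on signal rank, so it is not separate from the lower signal. Of the 482 members, 278 (57.7%, interval 53.1 to 62.1%) lay within 100 bp of one of the 8340 strongest peaks of each of the 3 replicates, where the background over all optimal peaks was 70.4%. For upstream summits the share was 74.5%. By replicate, 404 members were among the strongest peaks of replicate 1, 411 of replicate 2 and 353 of replicate 3. The share of all optimal peaks in each single replicate is not given here, so these counts describe the members only. In none of the 3 were 8 of the 482 members, against 73 of all 8340 optimal peaks. A deposited width of 450 bp was held by 65.8% of the members and by 49.2% of the upstream summits. Because so many peaks share this width, the difference of the median widths, 0.00 bp in every replicate, does not show that the widths were alike.

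**Figure D3:**
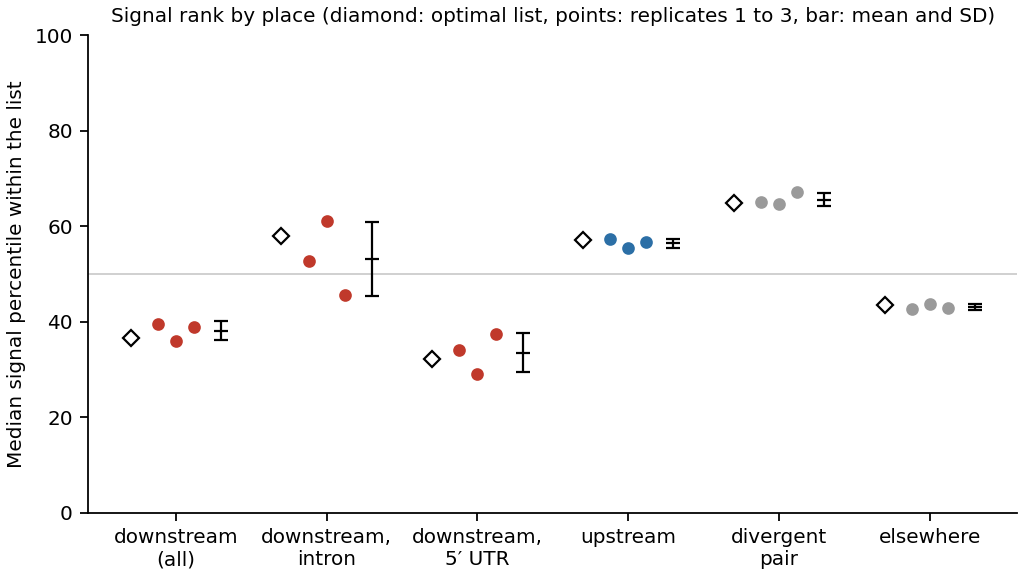
Median signal percentile within the list (vertical axis) for downstream summits, those in introns, those in 5′ UTRs, upstream summits, divergent pairs and summits elsewhere. Diamonds are the optimal list, points are replicates 1 to 3, and the bar is their mean and SD. Downstream summits lie at 36.6 in the optimal list, against 57.1 for upstream summits.

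The feature of the gene under the summit was not used to choose the members, and it split them into distinct kinds. Of the 482 members, 338 (70.1%) lay in a 5′ UTR, 125 (25.9%) in an intron, 17 (3.53%) in a coding exon and 2 in a 3′ UTR, with coding exon taken first where transcripts differed. The replicates gave 69.9 ± 4.29% in 5′ UTRs, 27 ± 3.89% in introns and 3.00 ± 0.784% in coding exons. The median distance was 48.0 bp in 5′ UTRs, 218 bp in coding exons and 357 bp in introns.

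The share in 5′ UTRs was 70.1% for members, against 57.5% at the members' distances downstream of all unpaired TSSs, 67.4% downstream of TSSs with an upstream summit and 71.6% downstream of the members' own TSSs. The largest class was thus near what the members' own TSSs give.

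Coding exons held fewer summits than their place downstream of TSSs would give. Positions at the members' distances downstream of all 15173 unpaired pairings of TSS and gene fell in a coding exon in 27.2% of cases. Downstream of TSSs with an upstream summit the share was 17.1%, and downstream of the members' own 475 TSSs it was 8.68%. The shares of members were 2.10%, 3.55% and 3.35% in replicates 1, 2 and 3, all under each of these values. Introns went the other way, with 25.9% of members, against 14.3%, 15.3% and 19.5% at the same kinds of TSS. The difference was smallest against the members' own TSSs, which had fewer coding positions nearby than other TSSs.

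**Figure D4:**
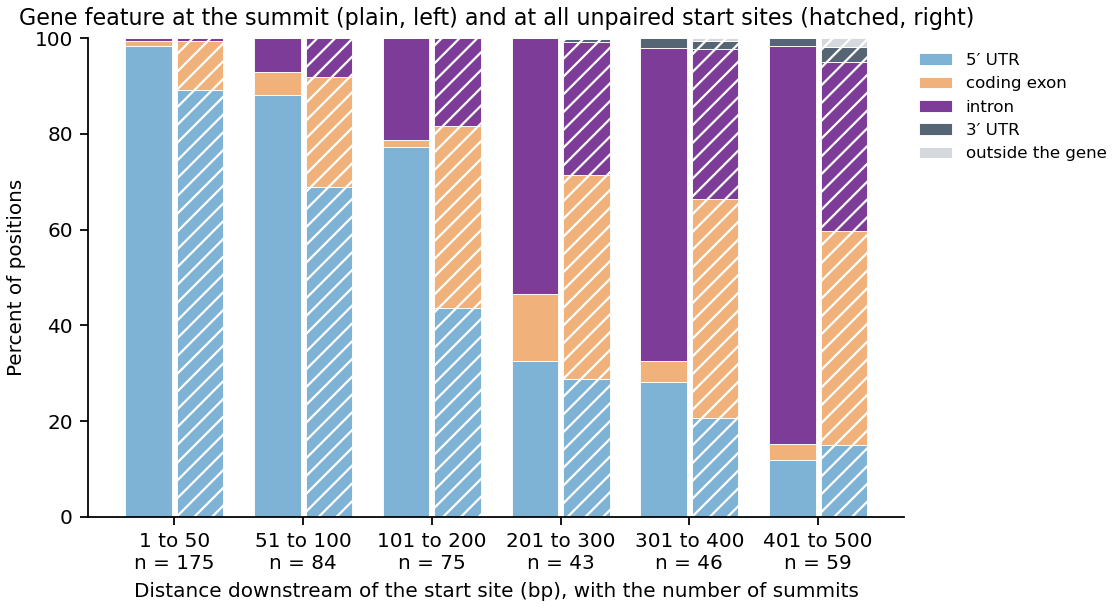
Percent of positions in each gene feature (vertical axis) by distance downstream of the TSS (horizontal axis, bp, with the number of members). Plain bars on the left of each pair are the members, and hatched bars on the right are all unpaired TSSs at the middle of the bin. At 401 to 500 bp 83.1% of members are intronic, against 35.3% of all unpaired TSSs.

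The intronic share rose more steeply with distance for members than for other start sites. At 1 to 50 bp 0.571% of members were intronic, against 0.705% of all unpaired TSSs at the middle of that stretch, and over 100 and up to 200 bp away 21.3% were, against 18.3%. Over 200 and up to 300 bp away 53.5% of members were intronic, against 27.8%, and at 401 to 500 bp 49 of 59 members (83.1%) were intronic, against 35.3%. Coding exons held 2 of 59 members (3.39%) at 401 to 500 bp, against 44.7% of all unpaired TSSs. For 5′ UTRs the contrast did not grow steadily, with 98.3% against 89.2% at 1 to 50 bp, 77.3% against 43.6% over 100 and up to 200 bp away, and 11.9% against 15.1% at 401 to 500 bp.

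Nearly every intronic member lay in a first intron, as did most intronic positions at other start sites. Of the 125, 120 lay in the first intron of a transcript that starts at their own TSS (interval 90.9 to 98.7%), against 4336 of 4691 intronic positions 350 bp downstream of all unpaired TSSs (interval 91.6 to 93.2%). They lay at a median of 155 bp past the 5′ splice site, against 163 bp for those positions. This median was 134, 149.5 and 150.0 bp in replicates 1, 2 and 3. In 83 of these 120 (69.2%) the intron lay before the start codon, so that it interrupted the 5′ UTR, against 60.2% of the first introns found 350 bp downstream of all unpaired TSSs. The median length of the intron was 1074.5 bp, against 1039.5 bp for all unpaired TSSs, and the replicates' medians ranged from 882.5 to 1306 bp, so the lengths did not differ beyond the spread.

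Intronic members ranked higher in signal than those in 5′ UTRs. Their median signal was 277 in introns, against 179 in 5′ UTRs. Their median percentile was 52.6, 61.1 and 45.6 in replicates 1, 2 and 3, against 34.1, 29.1 and 37.3 in 5′ UTRs. Intronic members were higher in every replicate, but the difference varied from 8.30 to 32.0 points (exact sign-flip permutation test p = 0.25). Intronic members also lay further from the TSS, at a median of 357 bp, against 48.0 bp in 5′ UTRs. Over all members of the optimal list the median percentile was 32.2 at 1 to 50 bp and 28.0 at 51 to 100 bp. It was 34.2 to 43.1 in the stretches between and 59.8 at 401 to 500 bp. The part of distance in the difference between introns and 5′ UTRs was not tested. In the strongest peaks of all replicates were 83 of 125 intronic members (66.4%) and 185 of 338 in 5′ UTRs (54.7%), beside the background of 70.4%.

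Members in 5′ UTRs included the strongest of all. PNPase, which encodes the mitochondrial RNA-degrading enzyme polynucleotide phosphorylase, had its summit 81 bp downstream of a TSS with a signal of 4755, and ranked 11, 10 and 11 in replicates 1, 2 and 3. GstE13, a glutathione S-transferase gene, had its summit at +51 bp with a signal of 3853, and ranked 28, 25 and 22. Both were near the top of every list, and their summits shifted by at most 17 bp between the optimal list and a replicate. A strongest peak of every replicate within 100 bp was a condition of naming the members in this paragraph. Ufsp1, which encodes a protease for the ubiquitin-like protein UFM1, had its summit at +20 bp and ranked 138, 132 and 153. Adk3, an adenylate kinase gene, had its summit at +45 bp, and its rank of 362 in replicate 3 was lower than those of 209 and 163 in replicates 1 and 2. CG17982, at +87 bp, ranked 154, 139 and 144, and CG2811, at +20 bp, ranked 177, 210 and 169.

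The strongest intronic members are given with their places in each replicate. A strongest peak of every replicate within 100 bp was a condition of naming them, so that they recurred is not a result. CG31612 had its summit at +473 bp with a signal of 1741, and ranked 161, 141 and 125 in replicates 1, 2 and 3. Its summit lay at +460, +471 and +503 bp, so replicate 3 put it just past the limit. Cftr, the fly relative of the chloride channel mutated in cystic fibrosis, had its summit at +193 bp and at +203, +199 and +200 bp in the replicates. Eip63F-1, an ecdysone-induced gene for a calcium-binding protein, had its summit at +479 bp and ranked 200, 199 and 228. The gene egh, for the glycosyltransferase egghead, had an intronic summit at +373 bp that ranked 225, 242 and 248. All of these positions repeated within 30 bp, CG31612 in replicate 3 included.

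Coding exon members were few and of middle rank. The 4 strongest found in every replicate were CG15531 at +441 bp, Got2, an aspartate aminotransferase gene, at +96 bp, uri, a prefoldin-like chaperone gene, at +56 bp, and CG44812 at +382 bp. Their signals ran from 352 to 469. Their best rank in any replicate was 1514.

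Members were poorer in G and C than the sequence usually found downstream of TSSs, and richer than upstream summits. The mean GC content within 50 bp of the summit on either side was 40.9%, against 37.0% at upstream summits, 35.2% in divergent pairs and 33.8% elsewhere. In replicates 1, 2 and 3 it was 41.7%, 41.0% and 40.3%, against 37.6%, 37.0% and 36.7% at upstream summits. The difference was 3.90 ± 0.304 points (SD, n = 3, exact sign-flip permutation test p = 0.25, adjusted p = 0.333), larger than the spread between replicates. Downstream of all unpaired TSSs at the members' distances it was 44.5%, and downstream of the members' own TSSs 43.4%.

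The GC content of members fell with distance while that of other start sites did not. At 1 to 50 bp members had 44.8%, against 43.6% at all unpaired TSSs. Over 100 and up to 200 bp away they had 38.3%, against 45.3%, and at 401 to 500 bp 36.3%, against 45.7%. The share of intronic members also rose with distance, and the part of introns in the fall was not tested. Over 100 and up to 200 bp away 16 of 75 members were intronic, with a mean of 34.65%. Intronic members had 35.0%, against 39.1% at intronic positions downstream of all unpaired TSSs at matching distances.

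**Figure D5:**
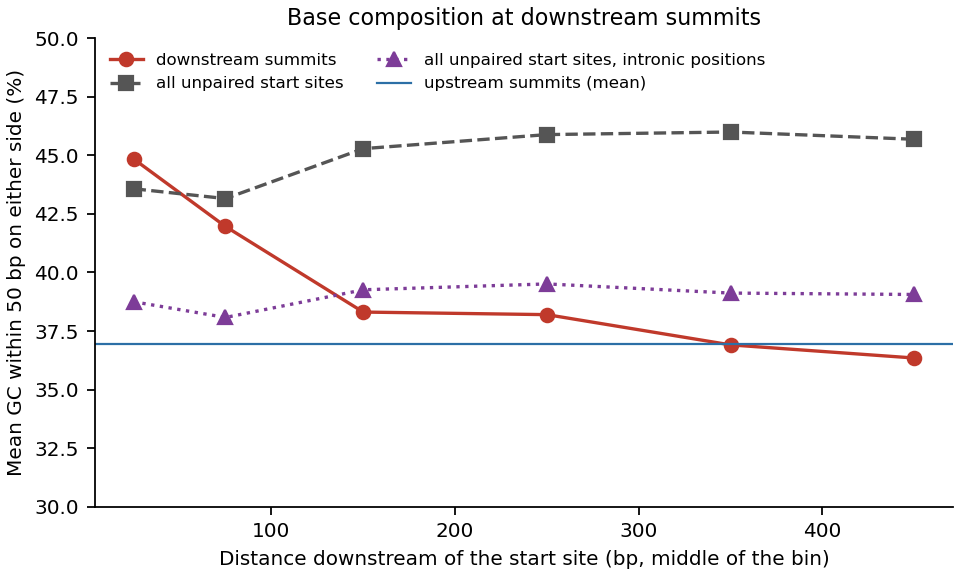
Mean GC content within 50 bp of the position on either side (vertical axis, %, drawn from 30 to 50%) against distance downstream of the TSS (horizontal axis, bp, middle of the bin). The line of downstream summits runs from 44.8% to 36.3%, and all unpaired TSSs stay between 43.1% and 46.0%. The horizontal line is the mean of upstream summits, 37.0%.

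Known promoter elements were searched as exact letters on both strands in the same window, for 20 motifs in all. The DRE (TATCGATA) was present at 16 members (3.32%), against 4.88% of upstream summits, 2.95% of all optimal summits and 0.261% of windows centred 90 bp downstream of all unpaired TSSs. In the replicates it was present at 2.92 ± 1.17% of downstream summits, against 4.52 ± 0.474% of upstream ones (exact sign-flip permutation test p = 0.25, adjusted p = 0.556 over 20 motifs). The shorter BEAF core (CGATA), which lies within the DRE and is bound by the boundary protein BEAF-32, was present at 21.4%, against 25.4% of upstream summits and 13.8% of the TSS windows. The motif 7 core (CAGCNCTG), an element of broadly active promoters, was present at 3.53%, against 4.75% and 1.02%. The motif 1 core (GGTCACAC), bound by M1BP, was present at 2.28%, against 2.44% and 0.288%.

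The shares of members with DRE and motif 7 letters in the optimal list thus lay below those of upstream summits and above those of the TSS windows. Motif 1 was within 1 replicate SD of upstream summits. The TSS windows were not matched to the distances of the members, for these or the other motifs. At the 175 members 1 to 50 bp downstream, the searched window reached upstream of the TSS, so the contrast with the TSS windows compares unlike positions. Where a member held the DRE, its centre was a median of 24.0 bp from the summit, and in 6 of 16 it lay upstream of the TSS. RpS29 held it at +18 bp, CG2200 at +2 bp and CG10809 at +29 bp from the TSS, in the sequences printed above. The motif 7 cores of Gmppb, Nulp1 and ND-13B, a subunit gene of mitochondrial complex I, lay at -44, -20 and -11 bp, all upstream of the TSS. The summit of Gmppb was at +1 bp in the optimal list and at -21, -4 and -1 bp in the replicates, so all 3 replicates put it on the upstream side.

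For the DPE letters and the CA repeat the share of members lay nearer to that of the TSS windows than to that of upstream summits. The DPE letters (CGGACG) were present at 15 members (3.11%), against 0.942% of upstream summits and 2.67% of the TSS windows. A CA repeat (ACACACAC) was present at 2.70%, against 0.899% and 2.32%. The E-box CAGCTG was present at 7.26%, against 5.18% and 4.29%. The letters TATAAA were present at 13.3%, against 17.7% and 10.2%. Each of these differences between downstream and upstream summits had the same sign in all replicates (p = 0.25 each, exact sign-flip permutation test, adjusted p = 0.556). The DPE works at a fixed place downstream of the initiator, and at +20 to +40 bp its letters were found on the sense strand of 9 of the members' 475 TSSs (1.89%), against 2.23% of the TSSs with an upstream summit and 1.47% of all unpaired TSSs. Prx4 and Wdr62 held the letters at +84 and +91 bp instead, and CG12290 held them at +50 bp on the opposite strand. None of the printed DPE letters thus lay at that fixed place.

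Elements with a fixed place in the promoter were counted at the start sites themselves. The initiator letters (TCAGT) lay within -5 to +9 bp of 14.9% of the members' TSSs, against 13.1% of those with an upstream summit and 13.8% of all unpaired TSSs. A TATA box (TATAAA) at -40 to -20 bp was present at 4.21%, against 3.00% and 6.98%. From -100 to +50 bp the DRE was present at 7.79%, against 9.28% and 4.22%. The TSSs of members at 1 to 50 bp held it in 13.7% of cases (24 of 175), and those of members beyond 200 bp in 1.36% (2 of 147). The motif 7 core fell in the same order, with 10.3% at the near and 4.76% at the far members' TSSs. For both elements the searched stretch included the summit of the near members and not that of the far ones. These shares thus do not compare the start sites alone. Over the 6 elements no adjusted p of the difference between members' and upstream TSSs was under 0.375 (exact sign-flip permutation test over replicates).

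The genes of the members were long and had many start sites. The 482 members belonged to 467 genes, 3.34% of the 13968 protein coding genes. Of these 467, 329 (70.4%) had several annotated TSSs, against 48.7% of genes with an upstream summit, 40.5% of genes in divergent pairs and 26.5% of all genes. The replicates gave 67.7%, 68.3% and 74.3%, against 48.8%, 48.5% and 49.1% for upstream genes (exact sign-flip permutation test p = 0.25). The median length of the genes was 5449 bp, against 4642.5 bp for upstream genes and 2164.5 bp for all genes.

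The downstream share was higher at genes with several TSSs than at genes with a single TSS, and the cause was not tested. At genes with several TSSs 21.6% of unpaired promoter summits lay downstream, against 11.3% at genes with a single TSS. The replicates gave 22.1 ± 0.745% at genes with several, against 11.5 ± 1.83% at genes with a single TSS (SD, n = 3, exact sign-flip permutation test p = 0.25, a comparison added after seeing the data). A further TSS of the same gene lay ahead of the summit within 500 bp at 113 members (23.4%), which were thus also upstream of a promoter. The nearest TSS was the first of its gene at 302 members (62.7%), and the peak interval covered that TSS at 314 (65.1%). For 6 members a TSS of another protein coding gene also lay within 500 bp. On the large arms the downstream share of unpaired promoter summits ran from 15.3% to 18.7%, and on chromosome 4 it was 0 of 23.

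Few start sites held a summit on both sides. An upstream optimal summit at the same TSS was present for 34 members, and in 22 of the 34 the upstream summit had the higher signal. The spacing was 199 to 925 bp with a median of 216 bp, and no pair of summits in the optimal list was closer than 199 bp, so nearer pairs could not be seen. At CG18622 the downstream summit at +186 bp had a signal of 2026 and the upstream summit at -13 bp one of 329. At Dp, which encodes the partner of the cell cycle factor E2F, the order was the other way, with 489 at +418 bp and 1387 at -229 bp. At Sqor, for the mitochondrial sulfide-oxidising enzyme, both sides were similar, with 789 at +44 bp and 817 at -193 bp. At the level of genes, 114 of the 467 also had an upstream unpaired summit at one of their TSSs.

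In 21 genes there was more than 1 member, at different TSSs or at different places after a TSS. At ph-p, which encodes the Polycomb repressive complex protein Polyhomeotic-proximal, the summit at +397 bp of the first TSS had a signal of 1522 and ranked 152, 150 and 186 in replicates 1, 2 and 3. The other, at +81 bp of a later TSS, had a signal of 218 and ranked 3009, 4806 and 5202. At Eip75B, an ecdysone-induced nuclear receptor gene, the summits lay at +15 and +104 bp of TSSs with signals of 1003 and 128. At Trpm, a cation channel gene, they lay at +133 and +153 bp with signals of 1348 and 428. The signals were 1391 and 189 at egh, 540 and 297 at Amun, and 445 and 208 at woc. Over the 21 genes the ratio of the stronger to the weaker signal ran from 1.24 to 7.84 with a median of 1.94, and it was at least 2 in 10 genes. Both summits were found in every replicate in 16 genes, and in 14 of these the stronger one ranked ahead in all 3 replicates.

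Lists of genes with shared functions were used to describe the members, with counts and no test. Beside the background of 3.34% of all genes, 10 of 86 ribosomal protein genes (11.6%) had a downstream summit, and 16, 10 and 6 had one in replicates 1, 2 and 3. They were RpS29, RpL26, RpL30, RpL27, RpS30, RpS2, RpL12, RpS23, RpL39 and RpL9. In the same list 28 genes had an upstream unpaired summit and 23 had one in a divergent pair, beside 2086 and 1291 of all 13968 genes. The higher share was thus not particular to downstream summits. Of the 10 summits 8 lay in a 5′ UTR. RpL39 had its summit at +42 bp in a coding exon, and RpL26 had its summit at +50 bp in an intron and ranked 971, 898 and 613. RpL30, at +14 bp, ranked 1356, 1358 and 2664, and RpL27, at +7 bp, lay at +18, -2 and +18 bp in the replicates. The count of ribosomal protein genes thus ranged from 6 to 16 between replicates.

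Of 32 cytoskeleton genes, 10 (31.3%) had a downstream summit and 7 an upstream unpaired one, beside 467 and 2086 of all genes. The replicates gave 6, 12 and 6 downstream. The strongest were sqh, the regulatory light chain of non-muscle myosin, at +85 bp with a signal of 539, and Moe, the membrane-actin linker moesin, at +6 bp with 492. The tubulin gene alphaTub84B at +58 bp and the small GTPase gene Rac2 at +99 bp had signals of 293 and 195. The others were kst, WASp, betaTub56D, Act5C, shot and ena.

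Of the 27 Polycomb and Trithorax genes, 5 had a downstream summit, and 4, 5 and 6 in replicates 1, 2 and 3. Trl, which encodes the GAGA factor, had its summit at +126 bp with a signal of 1300, and ranked 250, 284 and 320. The tandem copy of ph-p, ph-d, had its summit at +111 bp with a signal of 301, and ranked 2584, 4458 and 2848. As ph-p and ph-d are near-identical neighbours, reads could be shared between them, and how these were placed by the aligner is not known here. The histone methyltransferase gene trx, at +50 bp with a signal of 167, had no summit within 100 bp in replicate 1. Su(z)2 was the remaining member.

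Signalling and growth genes among the members spanned a wide range of signal. In the Hippo list 3 of 14 genes had a downstream summit, and these were Mer at +77 bp with a signal of 708, mats at +489 bp with 490 and sd with 133. In the Wnt list Apc, arr and fz2 had one, of 20 genes, with signals of 247, 135 and 134. In the insulin and TOR list Thor, the repressor of eIF4E, had one at +39 bp with 302, and the insulin receptor gene InR had one at +446 bp with 125. Mer, mats, Apc and Thor lay above the median signal of all optimal peaks, which was 236, and sd, arr, fz2 and InR below it. The Notch coactivator gene mam, at +177 bp with 131, had no summit within 100 bp in replicate 3.

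The remaining lists held few members in number, and their shares are given beside the background of 3.34% of all genes. Translation factors had 3 of 52 (5.77%), with eEF2 at +18 bp the strongest at 257. Cell cycle genes had 2 of 31 (6.45%), namely Dp and Cdk4. Synapse and ion channel genes had 2 of 24 (8.33%), namely Nrx-1 at +88 bp with a signal of 1092 and Syx1A at +16 bp with 156. Single members were Eip75B of 18 ecdysone and nuclear receptor genes (5.56%), Hsp83 of 15 heat shock genes (6.67%) and mam of 20 Notch pathway genes (5.00%). Rpn10 of 48 proteasome genes (2.08%) and ND-13B of 82 respiratory chain genes (1.22%) were also single members. No gene of the autophagy (21), EGFR and Ras (22), cuticle protein (96) and odorant and gustatory receptor (179) lists had a downstream summit in the optimal list. Replicate 2 had 1 autophagy gene and replicate 1 had 1 EGFR and Ras gene. The autophagy and the EGFR and Ras lists are too short for this absence to set them apart from the background. CG2120 itself was not a member, as the nearest optimal summit lay 733 bp from its TSS.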

How the data were processed

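The deposited dm6 peak lists, in narrowPeak format per the text deposited with each sample, were used for 3 biological replicates and for the optimal list. The signal of each peak and the summit offset from its start are as the authors' caller gave them. Per that text, 1 control served for every list, and the authors derived the optimal list from the replicate and pooled lists by irreproducible discovery rate. Which aligner and caller were used, in which versions, and how deeply each sample was sequenced are facts not given in the sources used here, so no interval that needs depth is given. Because signal is not comparable between lists, replicates were compared by its rank in their own list, and values are from the optimal list. Fragments of 200 to 800 bp, per the labels, limit how finely a summit can be placed.

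TSSs, exons and gene names came from Ensembl release 115 for genome release 6 (dm6), with 13968 protein coding genes and 19276 TSS positions, and sequence from the RefSeq assembly of the same release. The rule was applied to the optimal list and to the 8340 strongest peaks of each replicate. Ties in distance went to the TSS that the summit lay upstream of. Features and GC at other start sites were read at the middle of each distance bin and weighted by the number of members in the bin. Positions count the TSS base as 0. GC content and motifs were read from the summit and 50 bp on either side. Differences were tested over the replicates with the exact two-sided sign-flip permutation test, 34 tests in 4 families, with Benjamini-Hochberg adjustment in each family. Intervals are exact (Clopper-Pearson) at 95%. The scripts (Python 3.11.15, numpy 2.4.6, pandas 2.3.3, scipy 1.17.1, matplotlib 3.10.9) were tested on simulated data with known answers.

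The members and the 18 gene lists and 20 motifs, written from textbook knowledge, were chosen with earlier results of these data known, and 11 symbols of the lists found no gene. Named genes were the 12 strongest members found in the strongest peaks of every replicate, the 4 strongest in each feature class, up to 6 genes with several members, up to 4 per list, up to 3 per motif, up to 5 with summits on both sides of a TSS, and CG2120. Dp on both sides of its TSS, and the remaining members of lists, were named after their values were seen. The members' own TSSs and genes with a single TSS as measures were added after seeing the data. Alternatives changed the window, the pair distance, the TSS set, the number of peaks, the distance within which summits count as shared, the summit, the sequence window and the replicates used. The dm3 lists and the pooled list were not used here.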

Additional observations from a re-analysis of the deposited data

How the results depend on the processing

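The lower signal rank, the higher GC content and the lower share of TATCGATA at downstream than at upstream summits kept their direction in the mean of the replicates under all 15, 17 and 17 alternatives. The signal difference ranged from -21.0 points at genes with 1 TSS, a setting chosen after seeing the data, to -2.30 points among the peaks above the median signal of each list, called the stronger part below. The optimal list taken alone had the other sign for signal (1.35 points) and TATCGATA (1.14 points) in its 1000 strongest peaks, and for TATCGATA at genes with 1 TSS (0.345 points). The GC difference ranged from 2.07 to 5.86 points and the TATCGATA difference from -2.33 to -0.244 points. The number of members was 873 with a window of 1000 bp, 725 with no pair left out, 182 in the stronger part of each list, 278 among peaks strongest in all 3 replicates, 222 and 38 in the 5000 and 1000 strongest peaks, and 139 at genes with 1 TSS. Under the same settings, without that of no pair left out, the downstream share was 24.4, 12.04, 13.8, 12.5, 10.2 and 11.3%, and it was 20.6% with 1 TSS per gene and 18.4% with TSSs of every biotype. The median distance was 47.5 bp with a window of 200 bp and 424 bp with 1000 bp, 63.0 bp with no pair left out, 128.5 bp in the stronger part of each list, 113 bp in the 1000 strongest peaks and 53.0 bp at genes with 1 TSS. The width difference was -6.00 bp in the stronger part of each list, -1.83 bp in the 5000 and -29.3 bp in the 1000 strongest peaks. Members in the strongest peaks of every replicate were 62.5% with 1000 bp, 62.1% with 1 TSS per gene, 94.0% in the stronger part, 73.4% and 89.5% in the 5000 and 1000 strongest, 47.7% within 50 bp and 53.2% at genes with 1 TSS. Members placed downstream in every replicate were 62.6% with 200 bp, 79.7% with 1000 bp, 74.8% with 1 TSS per gene, 83.5% in the stronger part, 81.3% among peaks strongest in all replicates, 80.2% and 89.5% in the 5000 and 1000 strongest, 56.0% within 50 bp and 63.3% at genes with 1 TSS. Intronic members were 6.89% with 200 bp, 53.7% with 1000 bp, 19.6% with no pair left out, 21.98% with 1 TSS per gene, 32.8% with TSSs of every biotype, 37.4% in the stronger part, 29.9% among peaks strongest in all replicates, 33.3% and 39.5% in the 5000 and 1000 strongest and 20.9% at genes with 1 TSS. Without 1 replicate each, the number ranged from 310 to 350, the share from 14.3 to 15.4%, the share in the strongest peaks from 64.3 to 72.6%, the share placed downstream from 84.3 to 86.3%, the intronic share from 26.0 to 30.3%, and the signal difference in the optimal list from -13.3 to -8.10 points, against -20.5 points with all. These settings change how many peaks, how much distance or how many replicates enter, and the cause of the shifts was not tested. No paired analysis was possible because the samples form only 1 group, and the tests between kinds of summit already use differences within each replicate. The limits are the unknown depth, the 3 replicates, and the fragment length, against which a summit within 50 bp of the TSS is not firmly on one side.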

Other observations

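Some members also lay near RNA genes. Of the 482 downstream summits, 27 (5.60%) were within 500 bp of the 5′ end of an annotated RNA gene or pseudogene, against 6.08% of upstream summits at unpaired promoters and 1.15% of summits in divergent pairs. At most of them the RNA was a long noncoding or antisense RNA on the strand opposite the gene. The strongest was Naam, which encodes a nicotinamidase, with a summit at +425 bp, a signal of 1005 and a valine tRNA gene whose 5′ end lay 474 bp from the summit on the opposite strand. At RpS29, with a signal of 753, the summit lay at -347 bp from the start of a snoRNA gene on the same strand. At Sqor the summit lay 288 bp downstream of the 5′ end of an antisense RNA, and at Septin2 it lay at -38 bp from one. At Myc, the gene of a growth-promoting transcription factor, the summit at +74 bp, with a signal of 135, lay equally far from the 5′ end of a long noncoding RNA annotated from the same base. These genes were picked after their values were seen.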
